A study of Homo sapiens with 6 samples.

Results

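The 10 genes described here encode the cyclins, kinases and inhibitors that set the pace of the G1 phase of the cell cycle. They are CCND1, CCND2, CCND3, CCNE1, CDK4, CDK6, CDKN1A, CDKN1B, CDKN1C and GADD45A, and they are 10 of the 60671 genes listed for each library. They were given by name and not by a cutoff on their values, but with earlier results of these data known. RNA was sequenced from KGN cells, a human granulosa tumour cell line, which had been genome-edited and carried the genotype FOXL2 WT/WT in all libraries, controls included. FOXL2 is a forkhead transcription factor of granulosa cells, and the comparison asks how transcript levels moved when its mRNA was depleted. The 3 FOXL2 siRNA libraries came from cells given 30 pmol of siRNAs against FOXL2, and the 3 control siRNA libraries from cells given as much of a scrambled siRNA, all extracted after 30 h. Each FOXL2 siRNA library received its own pool of 3 siRNAs drawn from 4, with 1 siRNA in all pools, so the pool and the library cannot be told apart. Different pools mean separately transfected cells in the FOXL2 siRNA group. For the control group nothing in the labels says that the libraries came from separate cultures, so the spread between them, on which p-values also rest, may be technical.

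D-type cyclins bind CDK4 or CDK6, and the resulting kinases phosphorylate the retinoblastoma protein, which releases E2F factors that switch on genes of DNA replication. Cyclin E with CDK2 carries that phosphorylation further at the entry into S phase. Proteins of the Cip/Kip family, p21, p27 and p57, bind cyclin-kinase complexes and restrain CDK2, while p21 and GADD45A are also known as products of p53 target genes.

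Total expected counts lay between 23843192 and 28791954 per library, and 15663 genes passed the filter on low counts. FOXL2, the targeted gene (chromosome 3, 138944224 to 138947140, minus strand), had 9.88, 9.71 and 10.8 CPM (counts-per-million units, with library sizes scaled by TMM) under control siRNA, and 2.64, 3.31 and 2.36 CPM under FOXL2 siRNA. The FOXL2 siRNA libraries thus held 27.3% of the control level of FOXL2 (log2 fold change -1.88, SE 0.142, edgeR quasi-likelihood test with Benjamini-Hochberg adjustment, adjusted p = 0.00267). In RNA from whole cultures, less of a transcript in each cell and fewer cells that hold it cannot be told apart. FOXL2 siRNA replicate 2 stood apart from the other libraries, with a score of 47.3 on a first principal component that held 29.6% of the variance, against -19.5 for the next most distant library, so the log2 fold change of each tested G1 gene is also given without it. Of 11 granulosa cell markers, FOXL2, NR5A1, AMH, KRT8 and KRT18 were measured above the filter. FSHR and WT1 had 0 counts in all 6 libraries, where 3 counts are worth 0.104 to 0.126 CPM, and CYP19A1, AMHR2, INHA and GATA4 also stayed below the filter.

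By selection from random RNA in vitro, the study found that FOXL2 binds RNA rich in G doublets, and drew a consensus from it. In what it calls a preliminary analysis, it also asked whether genes that respond to FOXL2 knock-down carry such sequences. The transcripts of the G1 genes were therefore searched for such a run. The matches are printed to show what this sequence looks like in them. The motif is GG written 8 times with gaps of 1 to 4 bases of any kind (N). It was sought on the transcript strand in the longest GENCODE v29 transcript of each gene (GRCh38). It is looser than the paper's consensus, which has a fixed A in some gaps and allows 4 bases only in the first. The stretches printed below have 4-base gaps further on and do not meet that consensus. The study itself compared its genes with published lists of transcripts held to form G-quadruplexes. The searched motif was present in 3 of the 10 genes and in 2993 of 15530 tested genes with such a transcript, or 19.3%. CDKN1C, which has a match, and CCND2, which has none, did not pass the filter and are not among those 15530. In CCND1 the match lies in coding exon 5, on the plus strand at chr11:69651210-69651235. In CDKN1C, which is encoded on the minus strand, the pair shown lies in coding exon 1, at chr11:2884973-2885016 and chr11:2884925-2884968. The capitals mark the G doublets, and the sequences run 5′ to 3′.
CCND1: GGaGGaGGaagaGGaGGaGGaGGaGG
CDKN1C, first: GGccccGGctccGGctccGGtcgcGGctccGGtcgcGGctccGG
CDKN1C, second: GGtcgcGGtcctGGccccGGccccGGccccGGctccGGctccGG
The run of CCND1 is a purine tract of short gaps, whereas those of CDKN1C repeat G doublets separated by C-rich gaps of 4 bases. GADD45A had a match of 31 bases in the 5′ UTR of its exon 1 (chr1:67685138-67685168). No match was found in CCND2, CCND3, CCNE1, CDK4, CDK6, CDKN1A or CDKN1B, although the transcript of CDK6, with 11612 bases, was the longest of the set against a median of 3323.5 bases over all tested genes. A match describes the letters of the transcript and is not a measured binding site.

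Promoter sequences from RefSeq (GRCh38.p14) were at hand for 6 of the 10 genes, as 9 windows that begin 250 bases upstream of their starts: CCND3, CCNE1, CDK4, CDK6, CDKN1A and CDKN1B. On neither strand did these windows hold the A-rich word AAACAAA, or with T in the middle AAATAAA, or the homopolymer AAAAAAA, or the forkhead motif GTAAACA. Over 35116 promoter windows the shares were 7.37%, 7.68%, 8.69% and 2.98%, in that order, and 21.54% held any of the 4. A FOXL2 consensus cited by the paper also allows A for the G of GTAAACA and T for its C. The CDK6 window at chr7:92833960-92834209 held ATAAATA, which meets that consensus. The share of all windows with ATAAATA was not counted.

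TPM, in transcripts-per-million units, scales each gene to its length, which allows levels of different genes to be compared. In the control siRNA libraries CCND1 was the most abundant of the set at 486 ± 64.6 TPM (SD, n = 3), followed by CDKN1A at 251 ± 30.1, CDK4 at 198 ± 2.45, GADD45A at 102 ± 7.13 and CCND3 at 66.2 ± 4.56 TPM. The ranges of these 5 genes did not overlap. Below them came CDK6 at 13.2 ± 2.08, CDKN1B at 12.8 ± 1.43 and CCNE1 at 10.8 ± 0.582 TPM, and the ranges of CDK6 and CDKN1B, and of CDKN1B and CCNE1, overlapped. CDKN1C at 0.27 ± 0.21 TPM and CCND2 at 0.0167 ± 0.0153 TPM were close to the level of single reads. By transcript level the cells held 1 main D-type cyclin, 1 main kinase partner and 1 main Cip/Kip inhibitor. In the FOXL2 siRNA libraries the first 5 genes kept their order and stayed apart, while CDKN1B (16.9 ± 2.51 TPM) ranked above CDK6 (8.89 ± 3.76 TPM), with ranges that did not overlap, and CDK6 overlapped with CCNE1 (8.82 ± 1.59 TPM).

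**Figure D1:**
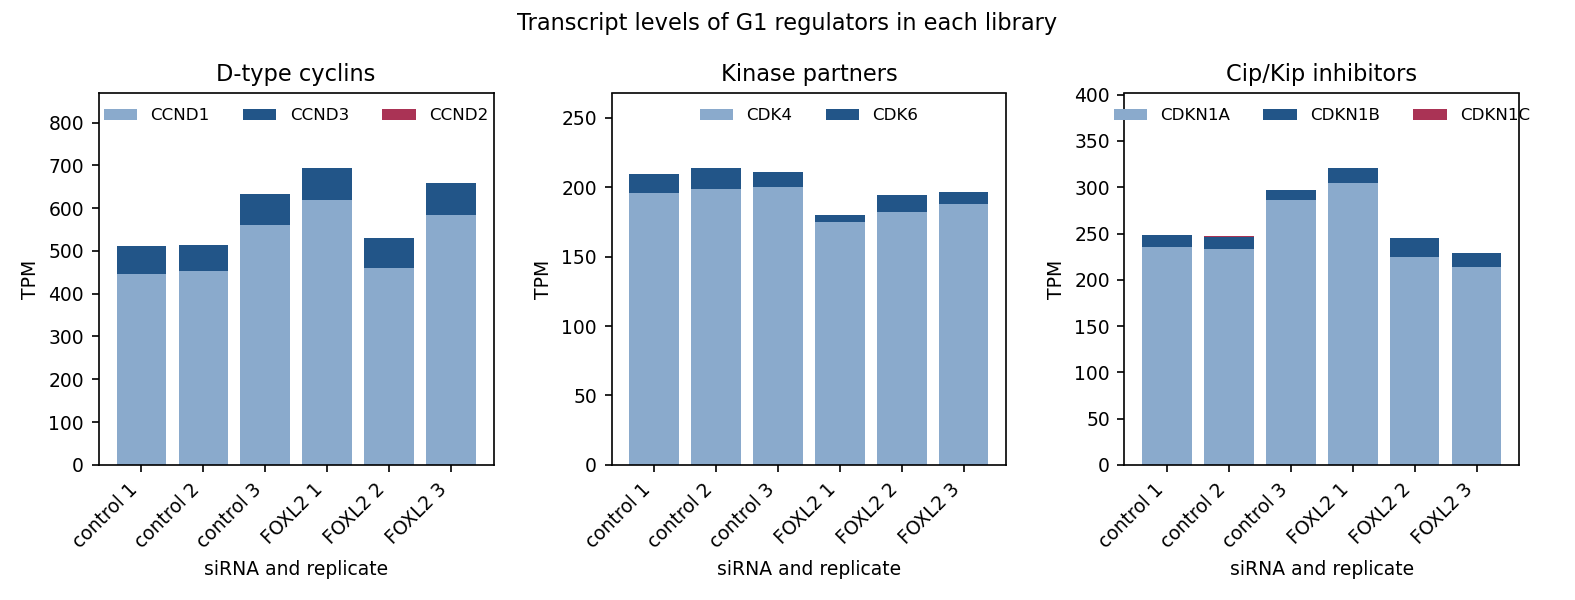
Stacked bars give the TPM of the D-type cyclins (left), their kinase partners (middle) and the Cip/Kip inhibitors (right) in each of the 6 libraries, named on the horizontal axis by siRNA and replicate. CCND1, CDK4 and CDKN1A make up most of each bar, and the D-type cyclin sum runs from 511 TPM in control siRNA replicate 1 to 695 TPM in FOXL2 siRNA replicate 1.

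Of the 10 genes, 8 passed the filter and were tested, and CCND2 and CDKN1C did not pass. By edgeR, none of the 8 had an adjusted p below 0.05, where 0.255% of all tested genes were called (40 of 15663). None was called by DESeq2 either, where 3.06% of the 11520 genes given an adjusted p were called. At an unadjusted p below 0.05, 3 of the 8 passed, CCND1 and CDKN1B higher and CDK4 lower in the FOXL2 siRNA libraries, against 13.5% of all genes. The CPM of the 2 groups did not overlap for 2 of the 8, CDK4 and CDKN1B, against 20.5% of all genes. Fitted values were higher for 4 of the tested genes and lower for 4, and their median log2 fold change was 0.00, next to 0.01 over all genes. Their median size, regardless of sign, was 0.21 on the log2 scale, next to 0.12 over all genes. Without FOXL2 siRNA replicate 2, edgeR called 1 of the 8, CDK6, where it called 3.61% of 16025 genes, and 6 of the 8 had an unadjusted p below 0.05, against 17.4%.

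**Figure D2:**
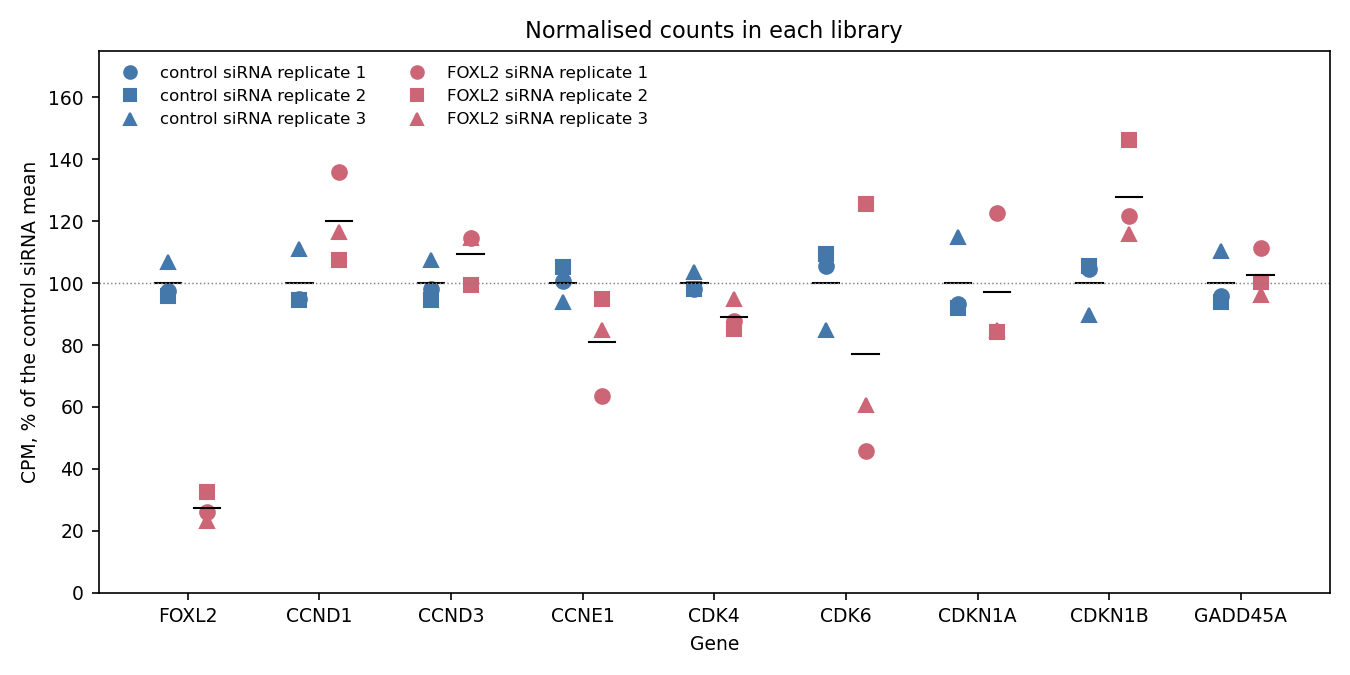
Points give the TMM-scaled CPM of FOXL2 and of the 8 tested genes in each library as a percentage of the control siRNA mean of that gene, with shape marking the replicate number and colour the siRNA, and the short black lines are group means. FOXL2 falls to 27.3% of control in the mean, while the FOXL2 siRNA means of the G1 genes run from 77.2% for CDK6 to 127.9% for CDKN1B. All FOXL2 siRNA points lie above 100% for CCND1 and CDKN1B and below it for CDK4 and CCNE1. CDK6 in the FOXL2 siRNA libraries spreads from 45.7% to 125.4%.

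CCND1 (chromosome 11, 69641087 to 69654474, plus strand) encodes cyclin D1, the D-type cyclin most often linked to growth factor signals. It had 895, 893 and 1048 CPM in the control siRNA libraries and 1286, 1017 and 1101 CPM in the FOXL2 siRNA libraries. The groups overlapped, because control siRNA replicate 3 was above FOXL2 siRNA replicate 2, although all 3 FOXL2 siRNA libraries were above the control mean. Mean levels were 945 ± 89.2 and 1134 ± 137 CPM, a log2 fold change of 0.26 (SE 0.0987, 95% interval 0.04 to 0.49), with an edgeR p of 0.0256 before and 0.31 after adjustment. Without FOXL2 siRNA replicate 2 the log2 fold change was 0.33 and the edgeR adjusted p 0.0736. Without FOXL2 siRNA replicate 1, the highest library, they were 0.16 and 0.5. On the TPM scale the log2 ratio of the means was 0.19. The effective length estimated for CCND1 was 3484 bases in FOXL2 siRNA replicate 2 and between 2713 and 3039 in the other libraries. The expected counts of CCND1 were not whole in any of the 6 libraries, which RSEM gives where reads also match elsewhere.

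CCND3 (chromosome 6, 41934933 to 42050357, minus strand), which encodes cyclin D3, had 76.8, 74.1 and 84.2 CPM in the control siRNA libraries and 89.8, 78.0 and 89.6 CPM in the FOXL2 siRNA libraries. As for CCND1, control siRNA replicate 3 was the highest of its group and FOXL2 siRNA replicate 2 the lowest of its own. The log2 fold change was 0.13 (SE 0.0798, 95% interval -0.05 to 0.31, edgeR adjusted p = 0.504), and 0.19 without that library (edgeR adjusted p = 0.173). CCND2 (chromosome 12, 4273772 to 4305350, plus strand), which encodes cyclin D2, had 2, 3 and 0 counts under control siRNA, and 4, 2 and 2 under FOXL2 siRNA. Both groups were near the level of 3 counts, worth 0.104 to 0.126 CPM, and a difference in CCND2 was not detectable at this depth.

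CCND1 held 88.0 ± 0.827% of the D-type cyclin TPM under control siRNA and 88.1 ± 1.26% under FOXL2 siRNA. The makeup of the D-type cyclin pool thus differed by less than its spread between libraries, with a difference that ran from -0.42 to 0.81 percentage points as single libraries were left out. The summed TPM was 511, 515 and 631 under control siRNA, which overlapped with 695, 531 and 659.7 under FOXL2 siRNA. On the log2 scale the sums differed by 0.19, or by 0.29 without FOXL2 siRNA replicate 2 or control siRNA replicate 3 and by 0.11 without FOXL2 siRNA replicate 1.

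CDK4 (chromosome 12, 57747727 to 57756013, minus strand) encodes the main kinase partner of the D-type cyclins in these cells by transcript level. It had 156, 156 and 165 CPM in the control siRNA libraries and 139, 135 and 151 CPM in the FOXL2 siRNA libraries. Every FOXL2 siRNA library was below every control siRNA library, and the same held in TPM. The means of 159 ± 5.06 and 142 ± 7.93 CPM gave a log2 fold change of -0.17 (SE 0.0633, 95% interval -0.31 to -0.02), with an edgeR p of 0.0278 before and 0.315 after adjustment. An exact permutation test on CPM gave a two-sided p of 0.1, the smallest that 3 against 3 libraries allow. Without FOXL2 siRNA replicate 2 the log2 fold change was -0.14 and the edgeR adjusted p 0.252. The expected counts of CDK4 were not whole in any of the 6 libraries, so its values also carry the counting's division of shared reads. CDK4 overlaps TSPAN31 and MARCH9, which lie on the opposite strand, but where the shared reads also match was not tested. CCND3, CDK6 and CDKN1A overlap genes on the opposite strand too, and their expected counts were whole in all 6 libraries.

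CDK6 (chromosome 7, 92604921 to 92836594, minus strand), which encodes the other kinase partner, had the widest spread between FOXL2 siRNA libraries, relative to its mean, of the tested genes. It had 75.4, 78.2 and 60.7 CPM in the control siRNA libraries and 32.7, 89.6 and 43.3 CPM in the FOXL2 siRNA libraries. FOXL2 siRNA replicates 1 and 3 were below all controls, at 45.7% and 60.5% of the control mean, whereas replicate 2 was above all controls, at 125.4%. Over all libraries the means were 71.5 ± 9.44 and 55.2 ± 30.3 CPM, and the log2 fold change was -0.38 (SE 0.308, 95% interval -1.07 to 0.32, edgeR adjusted p = 0.625). Without FOXL2 siRNA replicate 2 it was -0.91 (SE 0.134, 95% interval -1.22 to -0.61), with an edgeR adjusted p of 0.00855, and CDK6 then passed the threshold. With FOXL2 siRNA replicate 1 left out, it was -0.11, and without replicate 3 it was -0.23, so the size of the difference rests on single libraries. In TPM the control siRNA libraries had 13.7, 15.1 and 11, and the FOXL2 siRNA libraries 5.34, 12.8 and 8.5. In that unit FOXL2 siRNA replicate 2 fell within the control range and the log2 ratio of the means was -0.57. The effective length estimated for CDK6 was 11014 bases in FOXL2 siRNA replicate 2 and between 7543 and 8958 bases in the other libraries, and with these lengths as offsets the edgeR log2 fold change was -0.58 (adjusted p = 0.362). The part of the siRNA pool, of the library and of these length estimates in the value of replicate 2 was not tested. CDK4 held 93.5%, 93.0% and 94.8% of the summed CDK4 and CDK6 TPM under control siRNA, and 97.0%, 93.4% and 95.7% under FOXL2 siRNA. The means were 93.7 ± 0.96% and 95.4 ± 1.83%, and the groups overlapped through replicate 2. The difference of 1.63 percentage points was 2.61 without FOXL2 siRNA replicate 2 and 0.8 without replicate 1.

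**Figure D3:**
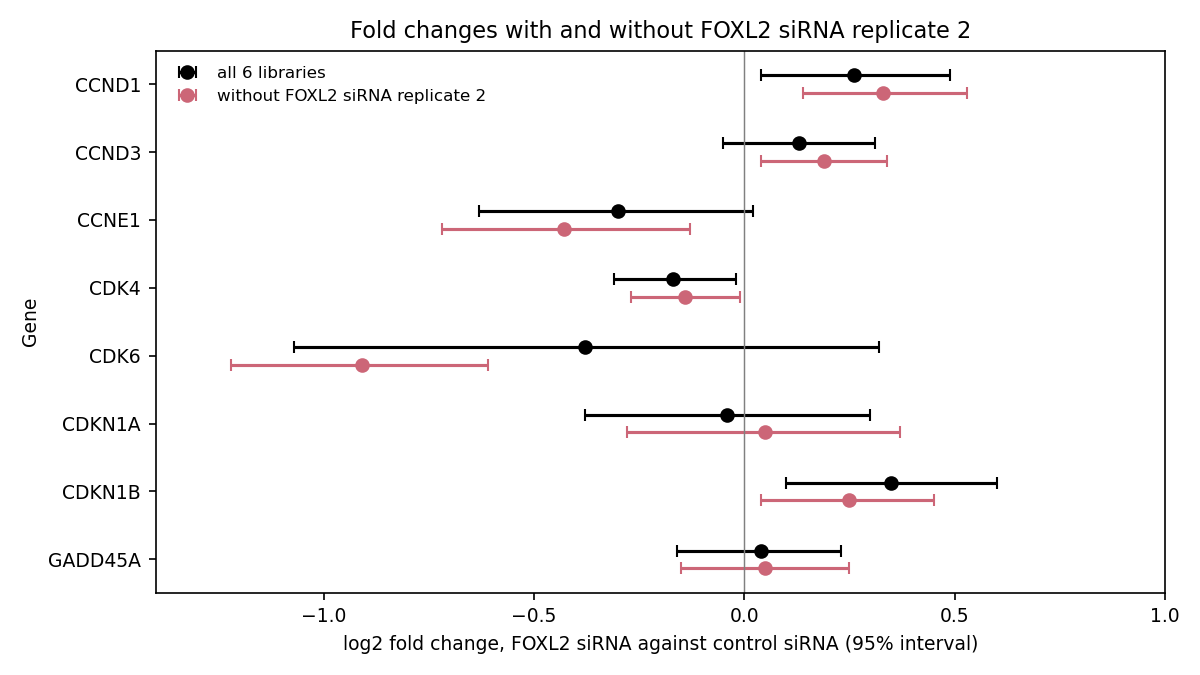
Points give the edgeR log2 fold change of FOXL2 siRNA against control siRNA for the 8 tested genes and horizontal bars its 95% interval, not adjusted for the number of genes, in black for all 6 libraries and in red without FOXL2 siRNA replicate 2. The value of CDK6 moves from -0.38 to -0.91 and its interval narrows, while CCND1 and CDKN1B stay above 0 and CDK4 below 0 in both.

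CCNE1 (chromosome 19, 29811898 to 29824308, plus strand) encodes cyclin E1, the partner of CDK2 late in G1. It had 11.5, 12 and 10.7 CPM in the control siRNA libraries and 7.28, 10.8 and 9.71 CPM in the FOXL2 siRNA libraries. All 3 FOXL2 siRNA libraries were below the control mean, but replicate 2 was above the lowest control. The log2 fold change was -0.30 (SE 0.143, 95% interval -0.63 to 0.02, edgeR adjusted p = 0.392), and -0.43 without FOXL2 siRNA replicate 2 (edgeR adjusted p = 0.126). When FOXL2 siRNA replicate 1, the lowest library, was left out, it was -0.16 (edgeR adjusted p = 0.619).

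CDKN1A (chromosome 6, 36676460 to 36687339, plus strand) encodes p21, which p53 is known to induce. It had 299.9, 296 and 369 CPM in the control siRNA libraries and 395, 271 and 273 CPM in the FOXL2 siRNA libraries. Control siRNA replicate 3 and FOXL2 siRNA replicate 1 were the high libraries, 1 in each group, and the groups overlapped. The log2 fold change was -0.04 (SE 0.149, 95% interval -0.38 to 0.30, edgeR adjusted p = 0.933), and its sign turned to 0.05 without FOXL2 siRNA replicate 2. In the fit that left out FOXL2 siRNA replicate 1, it was -0.24 (edgeR adjusted p = 0.392). The interval allows a change of up to 1.23-fold upward and to 0.769 of control downward. The antisense gene DINOL overlaps CDKN1A, and whether reads were counted by strand is not given in the sources used here.

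CDKN1B (chromosome 12, 12715058 to 12722371, plus strand), which encodes p27, had the smallest p of the set. It had 20.0, 20.2 and 17.2 CPM in the control siRNA libraries and 23.3, 28.0 and 22.2 CPM in the FOXL2 siRNA libraries. All 3 FOXL2 siRNA libraries lay above all 3 controls, in CPM and in TPM, and replicate 2 was the highest. The means of 19.1 ± 1.69 and 24.5 ± 3.07 CPM put the FOXL2 siRNA libraries at 127.9% of control. The log2 fold change was 0.35 (SE 0.11, 95% interval 0.10 to 0.60), with an edgeR p of 0.0107 before and 0.234 after adjustment, so CDKN1B did not pass the threshold. An exact permutation test on CPM gave a two-sided p of 0.1, the smallest possible. With FOXL2 siRNA replicate 2 left out, the log2 fold change was 0.25 and the edgeR adjusted p 0.204, and over the 17 alternative analyses the adjusted p ran from 0.109 to 0.543. Among 9468 tested genes with a mean of at least 10 CPM, those whose log2 CPM followed CDKN1B most closely over the 6 libraries were FAM200B (Pearson r 0.995), PIKFYVE (0.994) and SNRPE (0.992). The 6 libraries share their group difference and their scaling, and 421 genes had an r of at least 0.9. None of the 3 was called by edgeR, with log2 fold changes of 0.39, 0.17 and 0.25.

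CDKN1C (chromosome 11, 2883213 to 2885773, minus strand), which encodes p57 and is subject to imprinting, had 1, 8 and 3 counts under control siRNA, and 1, 0 and 1 under FOXL2 siRNA. These sums of 12 and 2 counts were below the filter, and 8 of the 12 control counts came from replicate 2. With no filter, the edgeR p of CDKN1C was 0.0258 before and 0.482 after adjustment. DESeq2 gave it a p of 0.111 and no adjusted p. CDKN1A therefore made up most of the Cip/Kip transcripts, with 95.0 ± 1.02% of their summed TPM in the control siRNA libraries and 93.5 ± 1.52% in the FOXL2 siRNA libraries. That share differed by -1.51 percentage points, or by -0.76 without FOXL2 siRNA replicate 2, -0.92 without control siRNA replicate 3 and -2.28 without FOXL2 siRNA replicate 1. The summed Cip/Kip TPM was 264 ± 28.7 and 265 ± 48.9, and its log2 difference ran from -0.16 to 0.10 as single libraries were left out.

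Set against this sum, the summed D-type cyclin TPM was 2.05, 2.09 and 2.12 times as high under control siRNA, and 2.17, 2.17 and 2.88 times as high under FOXL2 siRNA. The groups did not overlap, but by a narrow margin for FOXL2 siRNA replicates 1 and 2, and replicate 3 carried most of the difference. An exact permutation test gave a two-sided p of 0.1, the smallest possible. After Benjamini-Hochberg adjustment over the 6 shares, sums and ratio it was 0.45, and the groups overlapped for the other shares and sums. The mean ratios were 2.09 ± 0.0358 and 2.4 ± 0.411, a difference of 0.2 on the log2 scale, which was 0.27 without FOXL2 siRNA replicate 2 and 0.05 without replicate 3.

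GADD45A (chromosome 1, 67685061 to 67688338, plus strand) encodes a small stress-induced protein that binds PCNA and p21. It had 72.5, 71.1 and 83.5 CPM in the control siRNA libraries and 84.3, 76.0 and 72.6 CPM in the FOXL2 siRNA libraries. The groups overlapped throughout, and the log2 fold change was 0.04 (SE 0.0854, 95% interval -0.16 to 0.23, edgeR adjusted p = 0.888). It was 0.05 without FOXL2 siRNA replicate 2. Control siRNA replicate 3 and FOXL2 siRNA replicate 1 were each the highest of their group for GADD45A, for CDKN1A and for CCND1 and CCND3. Its relative GADD45B had a log2 fold change of 0.02, and GADD45G had at most 1 count per library.

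The partners, regulators and targets of these genes were read from 7 lists with 67 tested genes. By edgeR none of the 67 was called, 24 of them (35.8%) had an unadjusted p below 0.05, 11 higher and 13 lower, and the groups did not overlap for 27 (40.3%). The same shares over all tested genes were 13.5% and 20.5%. DESeq2 called 8 of the 67, CCNE2, CDKN2C, MDM2, XPC, AEN, MCM2, MCM3 and TYMS, where it called 3.06% of all genes given an adjusted p. Without FOXL2 siRNA replicate 2, edgeR called 5, CCNE2, CDKN2C, E2F6, XPC and MCM3, where it called 3.61% of all tested genes. The lists were assembled with earlier results of these data known, and these counts describe them without testing the lists. When FOXL2 siRNA replicate 2 was left out, the list medians ran from -0.39 for the INK4 inhibitors to 0.09 for the other cyclins and kinases, and that of the retinoblastoma and E2F families turned from 0.02 to -0.03.

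**Figure D4:**
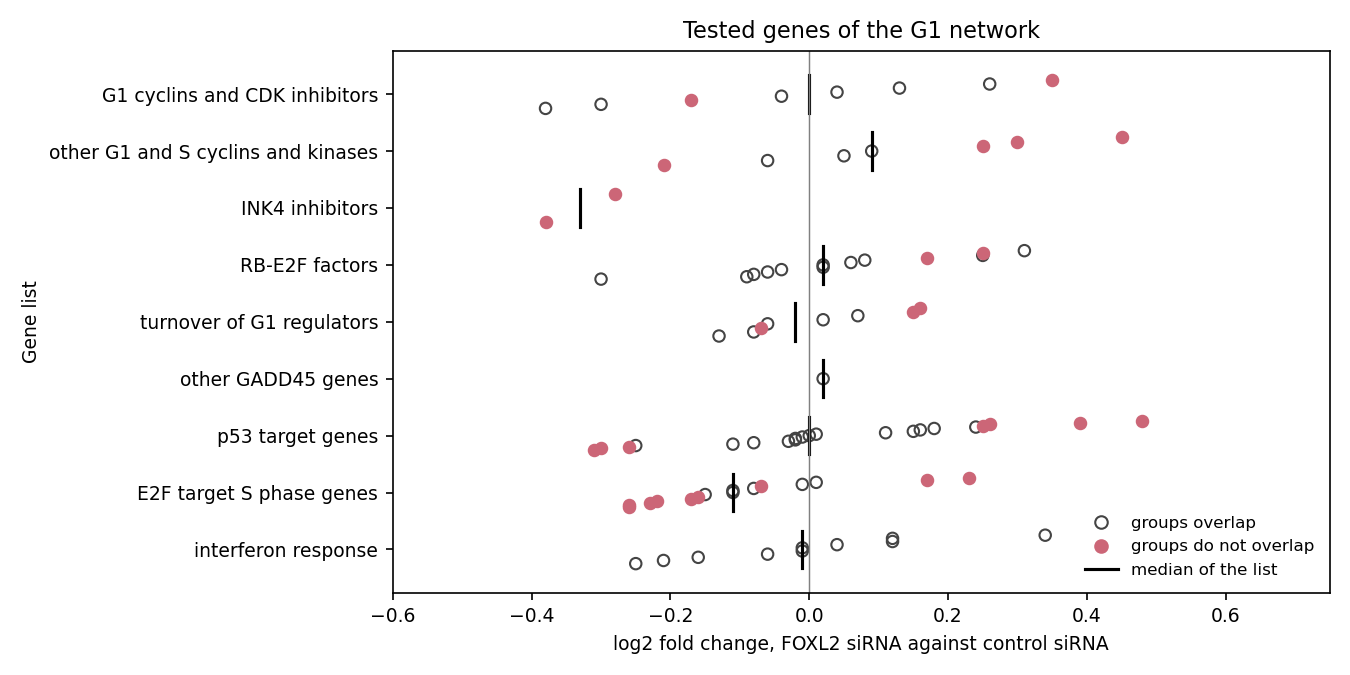
Each point is the edgeR log2 fold change of FOXL2 siRNA against control siRNA for 1 tested gene, in rows by gene list, filled where the CPM of the 2 groups did not overlap and open where they did, with a black line at the median of the list. The medians run from -0.33 for the pair of INK4 inhibitors to 0.09 for the other G1 and S cyclins and kinases, and 12 of the 15 E2F target genes lie below 0. The last row holds interferon response genes, which are not part of the G1 network.

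Among the 7 other cyclins and kinases of G1 and S phase, 5 had higher and 2 lower fitted values (median log2 fold change 0.09). Of these, 2 of the higher and 1 of the lower had an unadjusted p below 0.05, against 13.5% of all tested genes. CCNE2, which encodes cyclin E2, had 16.7, 15.2 and 14.8 CPM in the control siRNA libraries and 22.8, 21.5 and 19.4 CPM in the FOXL2 siRNA libraries. All FOXL2 siRNA libraries were above all controls, whereas its relative CCNE1 had a fitted value below 0. The log2 fold change of CCNE2 was 0.45 (SE 0.0932, edgeR adjusted p = 0.108). The adjusted p was 0.0209 by DESeq2 and 0.0473 by edgeR without FOXL2 siRNA replicate 2. The lowest of the list was MNAT1, an assembly factor of the CDK-activating kinase, at -0.21.

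Of the INK4 inhibitors, which bind CDK4 and CDK6 directly, CDKN2B had 0 counts in all libraries and CDKN2A 1 count in 1 control siRNA library. CDKN2C, which encodes p18, had 83.5, 80.3 and 76.0 CPM in the control siRNA libraries and 60.2, 69.3 and 67.9 CPM in the FOXL2 siRNA libraries. CDKN2D, which encodes p19, had 21.0, 18.3 and 20.1 CPM under control siRNA, and 12.2, 17.0 and 16.6 CPM under FOXL2 siRNA. For both, every FOXL2 siRNA library was below every control. Their log2 fold changes were -0.28 (SE 0.0747, edgeR adjusted p = 0.171) and -0.38 (SE 0.129, edgeR adjusted p = 0.271). CDKN2C had an adjusted p of 0.0478 by DESeq2. In the fit that left out FOXL2 siRNA replicate 2, the log2 fold changes were -0.32 and -0.46 (edgeR adjusted p = 0.0419 and 0.0864).

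The 13 genes of the retinoblastoma and E2F families had a median log2 fold change of 0.02, with 8 above and 5 below 0. An unadjusted p below 0.05 was reached by 1 of them, against 13.5% of all tested genes. The lowest was E2F6, a repressor of the family, at -0.30 (edgeR adjusted p = 0.373), with 19.5, 20.3 and 18.6 CPM in the control siRNA libraries and 14.1, 19.6 and 13.8 CPM in the FOXL2 siRNA libraries. In FOXL2 siRNA replicate 2 E2F6 was within the control range, and without that library its log2 fold change was -0.49 (edgeR adjusted p = 0.0176). The highest was E2F5 at 0.31. The 8 genes for the ubiquitin-dependent turnover of G1 regulators ran from -0.13 for FBXW7, the receptor for cyclin E, to 0.16 for RBX1, a ligase subunit. Of the 8, 2 were higher at an unadjusted p below 0.05, next to the same 13.5%.

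The 21 other p53 target genes had a median log2 fold change of 0.00, with 10 above and 11 below 0. In each direction 4 had an unadjusted p below 0.05, where 13.5% of all tested genes had one in either direction. The highest was TP53INP1, with 5.54, 5.55 and 6.04 CPM in the control siRNA libraries and 9.33, 8.35 and 6.24 CPM in the FOXL2 siRNA libraries (log2 fold change 0.48, edgeR adjusted p = 0.259). The lowest was AEN, an apoptosis-enhancing nuclease, at -0.31 (edgeR adjusted p = 0.178). MDM2, which encodes the ligase that degrades p53, was at 0.39 (edgeR adjusted p = 0.121) and XPC, a DNA damage sensor, at -0.30 (edgeR adjusted p = 0.115). With FOXL2 siRNA replicate 2 left out, the log2 fold changes were 0.44 for TP53INP1, 0.32 for MDM2, -0.35 for AEN and -0.28 for XPC, and XPC passed the edgeR threshold (adjusted p = 0.048). Genes of the list were thus found on both sides of 0, and CDKN1A and GADD45A lay near its median.

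Of the 15 E2F target genes of DNA replication, 12 had lower and 3 higher fitted values (median log2 fold change -0.11). An unadjusted p below 0.05 was found for 6 of the lower and 2 of the higher, and the groups did not overlap for 9. Over all tested genes these shares were 13.5% and 20.5%. MCM3, a subunit of the replicative helicase, had 201, 195 and 185 CPM in the control siRNA libraries and 159, 161 and 166 CPM in the FOXL2 siRNA libraries. Its log2 fold change was -0.26 (SE 0.0583, edgeR adjusted p = 0.117), with an adjusted p of 0.0137 by DESeq2. MCM2, of the same helicase, was the lowest of the list at -0.26 (edgeR adjusted p = 0.179), and TYMS, the thymidylate synthase, was at -0.23 (edgeR adjusted p = 0.159). The highest was UNG, a uracil glycosylase, at 0.23 (edgeR adjusted p = 0.257). When FOXL2 siRNA replicate 2 was left out, the log2 fold changes were -0.26 for MCM3, which passed the edgeR threshold (adjusted p = 0.0427), -0.29 for MCM2, -0.22 for TYMS and 0.19 for UNG.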

How the data were processed

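Libraries of stranded mRNA from 6 samples were grouped by siRNA as labelled. Per the submitters' notes, the authors used STAR 2.7.6a, Picard 2.8.1, RSEM 1.3.1 and DESeq2 1.26.0. Those notes name the mouse build GRCm38, whereas the gene identifiers are human. For each gene the authors deposited RSEM's expected count, an estimated count that is not normalized, together with TPM, scaled to library and transcript length, and an effective length. The FPKM values were not used.

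Expected counts were rounded. Low counts were filtered with filterByExpr, libraries scaled by TMM and groups compared by the quasi-likelihood test of edgeR 4.0.16 (glmQLFit with legacy=FALSE, R 4.3.3). The p-values were adjusted by Benjamini-Hochberg over all tested genes, and an adjusted p below 0.05 made a call. SEs and 95% intervals of log2 fold changes came from that test and are not adjusted. CPM errors are SDs of 3 libraries. The exact permutation test was two-sided. The script was tested on simulated data. No libraries of a group agreed within sampling noise.

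The genes, lists and tests were chosen with earlier results of these data known. Named were FOXL2, the 10 genes, of each of the 8 lists any called gene and the lowest and highest log2 fold change, and the 3 genes closest to the one with the smallest p. GADD45B, GADD45G, CDKN2A and CDKN2B, CD68, E2F6 without 1 library, and the calls of DESeq2 were named after their values were seen. Marker lists of granulosa, Sertoli, theca or Leydig, fibroblast, leukocyte and endothelial cells were read in the same fit. Gene symbols were found for 60401 of 60671 identifiers. Coordinates are those of GENCODE v29 on GRCh38, which may not be the authors' release. The CPM given for 3 counts reflects sequencing depth only.

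Alternatives were DESeq2 1.42.0, limma-voom, limma 3.58.1 on log2(TPM + 1) or log2(TPM + 0.1) for genes with a mean of at least 1 TPM, DESeq2's size factors, no filter, a mean of at least 50 counts, effective-length offsets, the replicate number as a block, and each library left out. For the shares, sums and ratio of TPM, TMM-scaled counts per base of the mean effective length were also used.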

Additional observations from a re-analysis of the deposited data

How the results depend on the processing

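The count of genes called by edgeR, 40, depended on the test and on single libraries. It was 353 by DESeq2, 346 by DESeq2 with effective-length offsets, 189 by DESeq2 with a replicate block, 13 by limma on log2(TPM + 1) and 13 on log2(TPM + 0.1), 69 with no filter, 64 with a mean of at least 50 counts, and 11 by edgeR with a replicate block, and it ran from 2 (without control siRNA replicate 1 or 3) to 579 (without FOXL2 siRNA replicate 2) when 1 library was left out. It was 3 without control siRNA replicate 2, 105 without FOXL2 siRNA replicate 1 and 9 without FOXL2 siRNA replicate 3. Of the G1 cyclins and inhibitors, 0 were called in each analysis except without FOXL2 siRNA replicate 2, where 1 was, a range of 0 to 1. The gene was CDK6, whose log2 fold change ran from -0.91 to -0.11 with 1 library left out. The calls among the 77 genes of the other lists, interferon response included, were 8 by DESeq2, 4 by DESeq2 with effective-length offsets, 1 by DESeq2 with a replicate block and 0 to 5 with 1 library left out. The direction of CDKN1A turned, to 0.07 without control siRNA replicate 3 and to 0.05 without FOXL2 siRNA replicate 2 or 3, a range of -0.24 to 0.07, and that of GADD45A turned to -0.01 without control siRNA replicate 2 and to -0.03 without FOXL2 siRNA replicate 1, a range of -0.03 to 0.11. Under the other settings, 146 log2 fold changes of FOXL2 and the 8 tested genes kept direction and side of the threshold, FOXL2 had no adjusted p from DESeq2 with a replicate block (log2 fold change -1.89), and 48 values of the shares, sums and ratio moved by less than the spread between libraries. The causes were not tested. Same-numbered libraries deviated together with correlations of -0.023, 0.066 and 0.042, and differently numbered ones with correlations from -0.102 to 0.083. With 3 libraries a group, these values neither show nor exclude a pairing by number. With the replicate block in edgeR, CDK6 was at -0.49 (adjusted p = 0.394), and no G1 gene was called. With 3 libraries a group, each printed interval gives the changes that the data allow for that gene, not adjusted for the number of genes. CCND2 and CDKN1C were limited by depth.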

Other observations

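Genes of the interferon response, which double-stranded RNA can induce, were read as a list of their own. Of the 10, none was called by edgeR or DESeq2, which called 0.255% and 3.06% of all genes. An unadjusted edgeR p below 0.05 was reached by 0, against 13.5% of all tested genes. Fitted values were higher for 4 and lower for 6 (median log2 fold change -0.01), from -0.25 for IFIT3, with 13.1, 12.6 and 14.6 CPM in the control siRNA libraries and 8.56, 13.9 and 11.6 CPM in the FOXL2 siRNA libraries, to 0.34 for OASL, which stayed below 1 CPM in every library. Without FOXL2 siRNA replicate 2 the log2 fold changes were -0.42 for IFIT3 and 0.01 for OASL.

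No marker of another cell type was called by edgeR, but not all of these markers were low. In the control siRNA libraries SOX9, PDGFRA and CD68 had means of 17.1, 62.5 and 65.3 CPM, next to 10.1 for FOXL2 and 62.6 for NR5A1. The 3 theca or Leydig markers summed to at most 0.0816 CPM in any library, with INSL3 at 0 counts in all, and the 3 endothelial markers to 1.24 to 2.36 CPM. The Sertoli markers summed to 18.7 to 21.5 CPM in the control siRNA libraries and 16.9 to 25.9 CPM in the FOXL2 siRNA libraries, mostly from SOX9. The fibroblast markers summed to 61.0 to 79.9 and 58.8 to 65.6 CPM, mostly from PDGFRA. The leukocyte markers summed to 62.0 to 69.0 and 49.1 to 60.7 CPM, nearly all from CD68, which other cells also express, with CD3E at 0 counts in all libraries. CD68 had 67.2, 60.7 and 67.9 CPM in the control siRNA libraries and 47.9, 51.9 and 59.8 CPM in the FOXL2 siRNA libraries. The groups did not overlap, and the log2 fold change was -0.29, with an edgeR p of 0.0106 before and 0.233 after adjustment.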
